A study of Homo sapiens with 8 samples.

Results

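RAB genes encode small GTPases that direct membrane traffic between the compartments of a cell. Their occupancy by HA-tagged RUNX1 was read from CUT&RUN peak lists of HEL cells, an erythroleukemia line. The family was taken as the protein-coding genes of hg38 whose symbol is RAB followed by a number and an optional letter, with effector names left out, which gave 62 of 20037 protein-coding genes, and 1 further gene of this form was not analysed here. A gene was counted as called in a library when a peak of that library's list lay within 10 kb of either end of the gene. Of the 62 genes, 45 were called in at least 1 library (72.6%, against 61.9% of all protein-coding genes) and 14 in all 6 libraries (22.6%, against 14.5%).

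A RAB protein is bound to its membrane in the GTP form and returns to the cytosol in the GDP form. Exchange factors load it with GTP, GTPase-activating proteins of the TBC family switch it off, and effectors such as tethers, motor adaptors and sorting proteins bind the GTP form. A lipid tail, attached by a prenyltransferase, anchors the protein to the membrane. In megakaryocytes and platelets, RAB proteins are known for the making and the release of granules. RUNX1 is a DNA-binding transcription factor of blood cell development, known in particular from megakaryocytes.

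The study set mutant forms of RUNX1 beside the wild-type protein to ask, per its title, how phosphorylation of RUNX1 bears on megakaryocytic fate. HEL lines transduced with HA-tagged RUNX1-4D, HA-tagged RUNX1-4A, HA-tagged WT RUNX1 or an empty vector were profiled in 2 biological replicates each. By the usual naming of phosphosite mutants, 4D stands for aspartate and 4A for alanine at the changed residues, which the labels do not list. All lines were kept in 2 µg/ml puromycin, and each library came from 500000 cells permeabilized with 0.01% digitonin, cleaved by a nuclease held at an anti-HA antibody and amplified over 12 PCR cycles. The RUNX1 that the cells make themselves carries no tag and was not measured in any line. The labels do not say whether a line is a clone, what promoter drives the transgene or how much tagged protein each line holds. Peak lists hold no expression values, so the identity of the cells could not be checked against markers.

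Each of the 6 lists comes from 1 library of the 4D, 4A or WT line, and the design names the empty vector line as the background of peak calling. The lists of 4D held 5358 and 21122 peaks on chromosomes 1 to 22, X and Y (replicates 1 and 2), those of 4A 6266 and 24251, and those of WT 6764 and 25911. Replicate 2 lists were thus several times longer than replicate 1 lists in every line. Read totals are unknown, so a region missing from a list fell short of the threshold at an unknown depth and may still have been bound. Per peak the authors give a fold enrichment over background and the −log10 of a q-value, and these are used here to describe peaks and to rank them within a list. They were not rescaled between lists of unknown depth, so a difference between lists cannot be read as one in binding strength. The smallest p that an exact permutation test of 2 libraries against 2 can give is 0.33, and the lines are therefore compared by counts and values beside the share of all genes.

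Promoters of 49 of the 62 genes were found in a RefSeq table (GRCh38.p14), and 7 of them lay under a peak in all 6 libraries (14.3%, against 6.95% of 15843 protein-coding promoters). A promoter here is 250 bases before to 50 bases after the start site. The 250 bases before the start of 4 of these genes are shown as examples, RAB40B for its matches to the RUNX motif and 3 others without one there, and no other protein-coding gene overlaps these stretches. Capitals mark matches to TGTGGT or TGCGGT on either strand, the core letters that RUNX proteins are known to bind. They are RAB40B (chr17:82698699-82698948, minus strand), RAB8A (chr19:16111639-16111888, plus strand), RAB6A (chr11:73761075-73761324, minus strand) and RAB11B (chr19:8390110-8390359, plus strand), each read 5′ to 3′ along the gene.
RAB40B: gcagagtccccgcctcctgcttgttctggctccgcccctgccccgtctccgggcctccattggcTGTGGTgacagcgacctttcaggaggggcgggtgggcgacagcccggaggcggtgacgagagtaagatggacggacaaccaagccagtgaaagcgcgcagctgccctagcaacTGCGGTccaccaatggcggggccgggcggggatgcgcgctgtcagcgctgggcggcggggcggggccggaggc
RAB8A: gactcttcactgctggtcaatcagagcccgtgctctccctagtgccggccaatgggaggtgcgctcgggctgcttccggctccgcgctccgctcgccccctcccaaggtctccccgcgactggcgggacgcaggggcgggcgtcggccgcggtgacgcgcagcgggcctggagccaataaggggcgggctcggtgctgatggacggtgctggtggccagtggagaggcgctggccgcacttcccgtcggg
RAB6A: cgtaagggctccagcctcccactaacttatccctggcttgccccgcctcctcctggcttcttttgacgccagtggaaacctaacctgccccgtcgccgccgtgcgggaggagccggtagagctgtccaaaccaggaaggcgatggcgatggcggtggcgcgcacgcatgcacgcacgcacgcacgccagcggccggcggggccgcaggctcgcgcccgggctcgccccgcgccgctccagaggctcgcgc
RAB11B: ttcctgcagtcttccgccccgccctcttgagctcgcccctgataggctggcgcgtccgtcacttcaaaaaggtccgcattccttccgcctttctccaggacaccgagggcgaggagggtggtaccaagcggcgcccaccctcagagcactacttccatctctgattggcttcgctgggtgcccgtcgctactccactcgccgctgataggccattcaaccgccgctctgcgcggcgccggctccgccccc
The RAB40B stretch holds TGTGGT with its first base at position -186 from the start site and TGCGGT at -73, and the other 3 stretches hold neither.

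Fewer RAB genes were called in 4D than in WT, with 4A between them in replicate 1, and the difference between replicates of a line was larger than that between lines. In 4D, 17 of the 62 genes were called in replicate 1 (27.4%, against 20.1% of all genes) and 36 in replicate 2 (58.1%, against 50.1%). In 4A, 22 were called in replicate 1 (35.5%, against 22.5%) and 36 in replicate 2 (58.1%, against 54.8%). In WT, 23 were called in replicate 1 (37.1%, against 26.2%) and 43 in replicate 2 (69.4%, against 54.9%). In all 6 libraries the share of RAB genes lay above that of all genes. The mean numbers of RAB genes were 26.5 ± 13.4 in 4D, 29.0 ± 9.90 in 4A and 33.0 ± 14.1 in WT (SD, n = 2), and the SDs exceeded the differences between lines. Each SD spans a replicate 1 list and a far longer replicate 2 list, so it does not measure the spread between like libraries. The corresponding shares of the other genes were 35.0% ± 21.2 in 4D, 38.7% ± 22.9 in 4A and 40.5% ± 20.3 in WT.

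**Figure D1:**
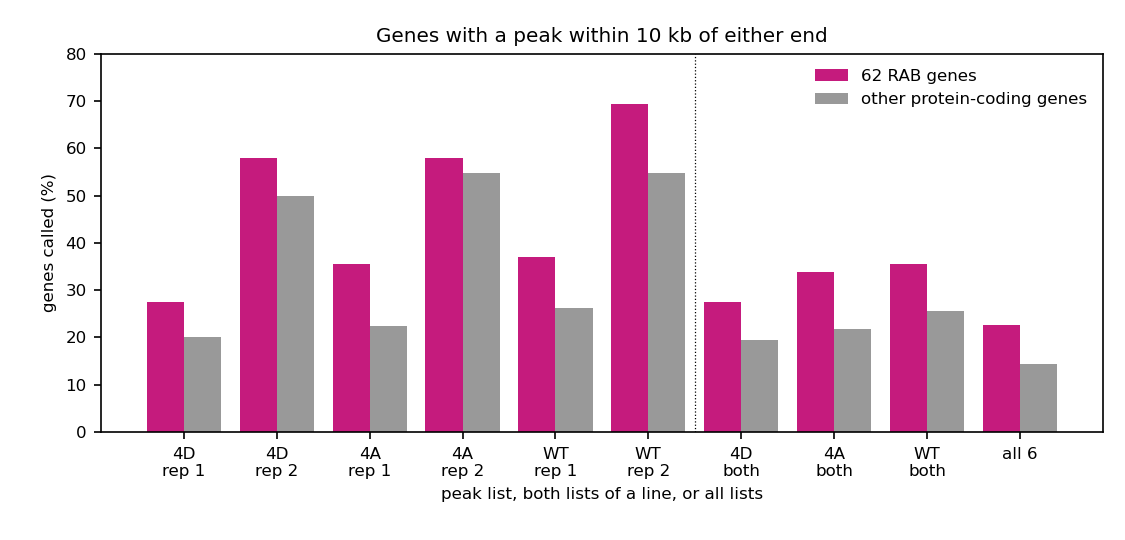
Percent of the 62 RAB genes and of the other protein-coding genes with a peak within 10 kb of a gene end, for each library of 4D, 4A and WT. The RAB share is above that of the other genes in every library, by the smallest margin in replicate 2 of 4A, where 58.1% of RAB genes were called.

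When the same region had to be called in both replicates of a line, 17 RAB genes remained in 4D (27.4%, against 19.5% of all genes), 21 in 4A (33.9%, against 21.8%) and 22 in WT (35.5%, against 25.6%). Nearly all genes of a replicate 1 list were also called in the replicate 2 list of the same line. The exceptions were RAB39A in 4A and RAB38 in WT. Called in replicate 2 alone were 19 genes in 4D, 15 in 4A and 21 in WT. A like pattern held over all genes, where replicate 1 called 4023 in 4D, 4511 in 4A and 5249 in WT. Of those, 3915, 4361 and 5123 had the same region called in both replicates. Replicate 2 called 10030, 10988 and 11005 of all genes. Genes called in replicate 2 alone were not counted over all genes. With every list shortened to its 5358 strongest peaks, the RAB genes called in both replicates were 9 in 4D (14.5%, against 12.2% of all genes), 13 in 4A (21.0%, against 13.0%) and 13 in WT (21.0%, against 13.3%), and those called in all 6 libraries fell to 7 (11.3%, against 8.88%).

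Of the RAB genes called, 14 were called in 6 libraries, 5 in 5, 5 in 4, 11 in 3, 5 in 2 and 5 in 1. The genes called in all 6 belong to most steps of traffic, and are RAB1B, RAB6A and RAB34 of the ER and Golgi, RAB4B and RAB5B of early endosomes, RAB8A, RAB8B, RAB11B, RAB25 and RAB35 of recycling and polarized delivery, RAB3A and RAB37 of regulated secretion, and RAB40B and RAB40C, which recruit ubiquitin ligases. No RAB gene of late endosomes, lysosomes and autophagy and none of the lysosome-related organelles was among them. These groups hold only 9 and 3 genes, beside 14.5% of all genes called in all 6 libraries, and the difference between roles was not tested. At RAB7A of the late endosomes, a region called in all 6 libraries lay just beyond the limit, at 10.6 kb.

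**Figure D2:**
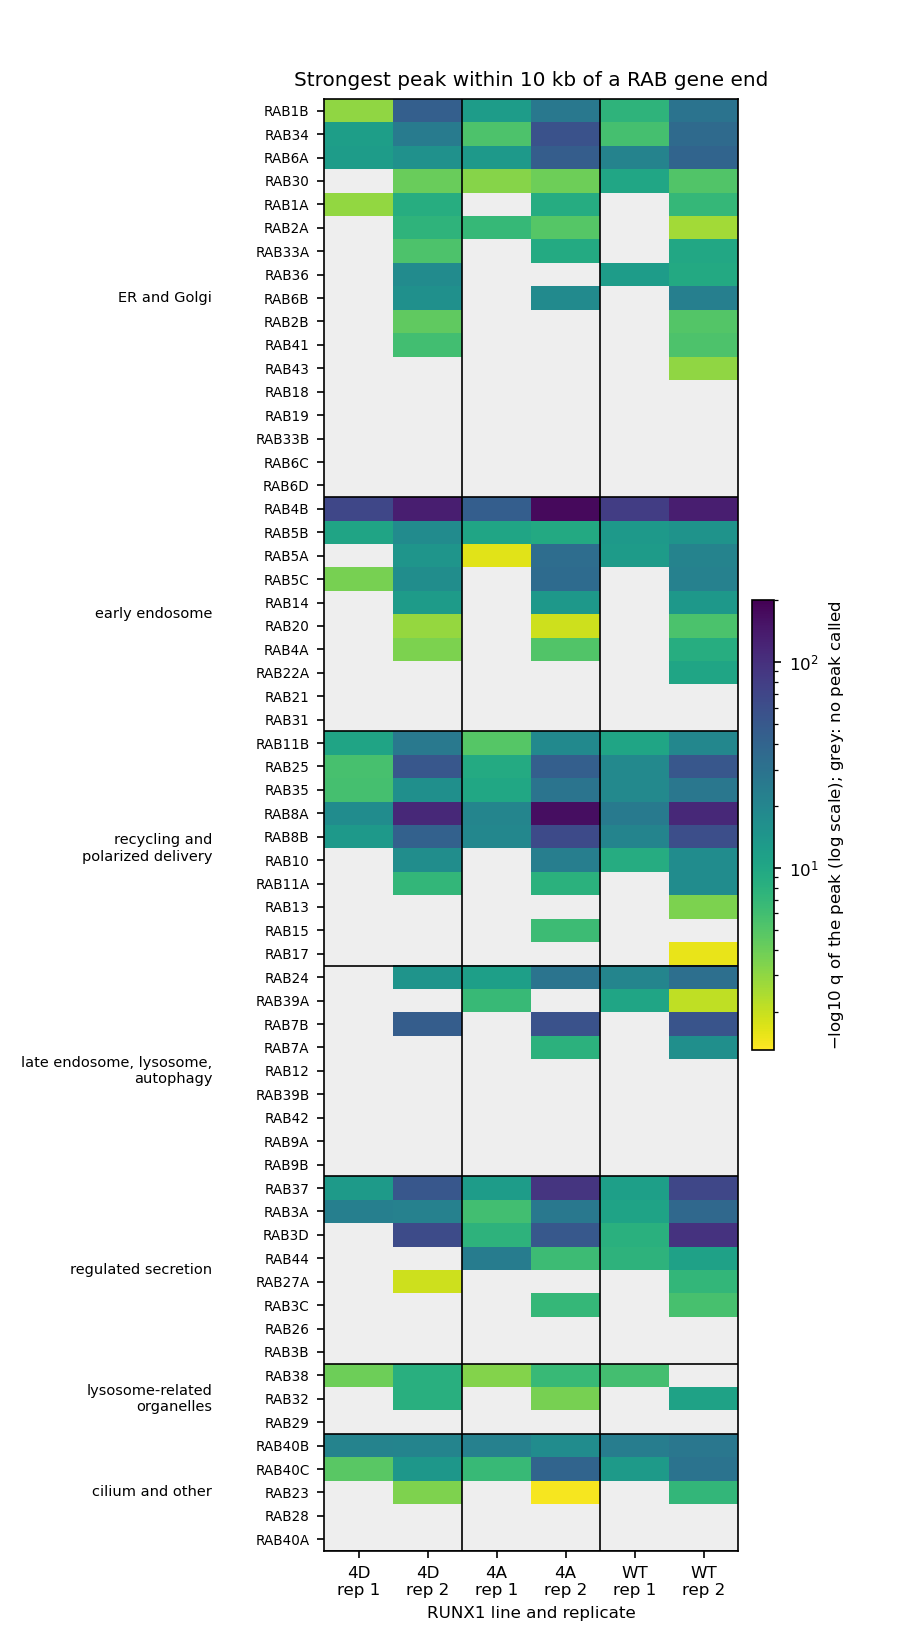
Strongest −log10 q of a peak within 10 kb of either gene end for the 62 RAB genes (down, grouped by role) in the 6 libraries of 4D, 4A and WT (across), with grey where no peak was called. The 14 genes with colour in every column include 5 of the 10 recycling genes and none of the 9 late endosome genes, and 17 genes are grey throughout. For RAB8B, RAB25 and RAB35 of the recycling genes, the region called in all 6 libraries lay at or nearer to another gene. Peaks beyond 10 kb are not shown, such as a region called in all 6 libraries at 10.6 kb from RAB7A.

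The counts by role below stand beside shares of all genes of 61.9% called in any library, 14.5% in all 6, and 19.5% in both replicates of 4D, 21.8% of 4A and 25.6% of WT. The RAB genes of recycling endosomes and of polarized delivery to the plasma membrane were all called in at least 1 library, 10 of 10. In both replicates, 5 of them were called in 4D, 5 in 4A and 6 in WT, and 5 had a region in all 6 libraries. Of these, RAB8A and RAB11B alone stayed called in all 6 libraries within 2 kb of a gene end. The same held with the nearest gene end only. RAB8A and RAB8B, which carry cargo to the plasma membrane and the primary cilium, ranked next after RAB4B among the 14 RAB genes called in every library. The RAB8A region (chr19:16111217-16111902) covers the start site and the promoter printed above, with its summit at -0.164 kb from the start (negative values lie before it). It had −log10 q values of 17.3 and 39.3 in 4D, 17.3 and 64.3 in 4A, and 25.6 and 28.9 in WT, with folds of 9.98 to 14.1. The lines overlapped in these values. Past the 3′ end of RAB8A, 5.18 kb away, lay another region called in all 6 libraries (chr19:16139419-16140297), with −log10 q of 5.68 and 111 in 4D, 20.2 and 167 in 4A, and 20.2 and 112 in WT. In each line the −log10 q of this region was far higher in replicate 2, the longer list.

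The RAB8B region (chr15:63276888-63277907) lay 9.11 kb beyond the 3′ end of the gene, over an end of APH1B, a subunit of gamma-secretase. It had −log10 q of 13.2 and 42.1 in 4D, 19.4 and 64.4 in 4A, and 20.8 and 59.3 in WT. RAB11B, a RAB of the recycling endosome, was called over its start site (chr19:8390050-8390971), with its summit at -0.061 kb. It reached −log10 q of 10.6 and 25.9 in 4D, 4.93 and 18.2 in 4A, and 10.4 and 19.4 in WT. For RAB11B the replicates of each line lay further apart than the lines. The summit in replicate 1 of 4A lay at 8390705 and the other 5 between 8390252 and 8390327, and with windows of 100 bp on either side of the summit RAB11B, RAB25 and RAB34 were no longer called in all 6 libraries. The region nearest RAB25, the epithelial relative of RAB11 (chr1:156053752-156055233), lay 5.93 kb away at UBQLN4, with −log10 q of 5.68 and 51.3 in 4D, 9.13 and 43.6 in 4A, and 18.8 and 51.1 in WT. For RAB35, which returns receptors from endosomes to the cell surface, the region called in all 6 libraries (chr12:120087089-120087664) lay 7.43 kb outside the gene, nearer to BICDL1. Its −log10 q was 5.79 and 14.1 in 4D, 9.91 and 28.7 in 4A, and 18.8 and 27.1 in WT. The start site of RAB35 itself was covered by another region (chr12:120116631-120117494), which was called in replicate 2 of every line, at 16.1 in 4D, 26.5 in 4A and 22.8 in WT, and in replicate 1 of WT alone, at 4.99.

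The other recycling genes were called in fewer libraries. RAB10, which brings glucose transporter vesicles to the surface, had a region over its start (chr2:26033557-26034328). It had 16.9 in replicate 2 of 4D, 23.4 in replicate 2 of 4A, and 8.79 and 17.4 in WT. RAB11A, the widely expressed relative of RAB11B, was called over its start in replicate 2 of each line, at 6.51 in 4D, 8.03 in 4A and 17.4 in WT. RAB13 and RAB17 were called in replicate 2 of WT alone, and RAB15 in replicate 2 of 4A alone.

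Of the 10 RAB genes of early endosomes, 8 were called in some library and 2 in all 6, with 3 called in both replicates of 4D, 3 in 4A and 3 in WT. RAB4B, which sends receptors from early endosomes back to the surface, held the strongest RAB region of the data, with a mean percentile rank of 98.8 over the 6 lists. This region (chr19:40777001-40778828) covers the start site, with its summit at -0.806 kb, and also the end of the neighbouring MIA gene. Its −log10 q was 68.0 and 131 in 4D, 44.2 and 177 in 4A, and 80.4 and 132 in WT, with folds of 16.3 to 24.8. RAB4B stood well above every other RAB gene in replicate 1 of all 3 lines. RAB5B, one of the RABs that drive early endosome fusion, was called over its start (chr12:55972893-55974088) and 0.104 kb from an end of CDK2. It had −log10 q of 10.5 and 17.5 in 4D, 10.4 and 9.43 in 4A, and 13.1 and 15.0 in WT. The RAB5B values of the 3 lines overlapped.

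The other RAB5 genes differed from RAB5B. RAB5A had a region over its start, shared with EFHB (chr3:19946724-19947398), at 14.4 in replicate 2 of 4D, at 1.64 and 32.9 in 4A and at 12.5 and 21.1 in WT. RAB5C had 5 regions within 10 kb, among the most of any RAB gene, but none in both replicates of 4A or of WT. The RAB5C region called in both 4D replicates (chr17:42161318-42161930) had 3.66 and 7.69 there, and 23.5 and 21.1 in replicate 2 of 4A and WT, and it lay 6.33 kb before the gene with KCNH4 nearer. RAB14, which links the Golgi to endosomes, was called over its start in replicate 2 alone, at 12.7 in 4D, 13.6 in 4A and 13.8 in WT. RAB4A and RAB20 were likewise called in replicate 2 alone, RAB4A at 3.52 in 4D, 5.13 in 4A and 8.67 in WT, and RAB20 at 2.88 in 4D, 1.92 in 4A and 5.43 in WT. RAB22A was called in replicate 2 of WT alone, and RAB21 and RAB31 were not called near either end.

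Among the 17 RAB genes of the ER and Golgi, 12 were called in some library and 3 in all 6, with 4 called in both replicates of 4D, 5 in 4A and 5 in WT. RAB6A, which runs traffic within the Golgi and back from endosomes, was called over its start and the promoter printed above (chr11:73760207-73761442), with the summit at -0.0795 kb. The −log10 q of RAB6A was 12.3 and 15.6 in 4D, 13.4 and 45.6 in 4A, and 20.9 and 39.8 in WT. In replicate 2 the 4D value of RAB6A was well below those of 4A and WT, with percentile ranks of 64.7 in 4D, 90.2 in 4A and 88.0 in WT. RAB1B, needed for transport from the ER to the Golgi, had its six-library region at its 3′ end (chr11:66277417-66278310), 8.92 kb from the start by the summit and also over an end of CNIH2. Its −log10 q was 3.02 and 43.2 in 4D, 12.4 and 26.7 in 4A, and 7.62 and 29.6 in WT. For RAB34, a Golgi RAB also needed to build cilia, the region (chr17:28711124-28712522) lay 1.76 kb outside the gene at PROCA1, with −log10 q of 11.8 and 24.6 in 4D, 5.29 and 55.9 in 4A, and 1.66 and 35.0 in WT. The replicate 1 value of RAB34 in WT was close to the lowest of its list, and its summit there, at 28712293, lay apart from those of the other libraries, at 28711458 to 28711500.

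RAB1A, the close relative of RAB1B, had a region 0.049 kb outside one end (chr2:65130155-65130713) at 2.93 and 5.88 in 4D, 8.91 in replicate 2 of 4A and 4.99 in replicate 2 of WT. RAB2A, which acts between the ER and the Golgi, had a region over an end at 7.51 in replicate 2 of 4D, 6.91 and 4.93 in 4A and 2.63 in replicate 2 of WT (chr8:60516806-60517432). RAB30, a Golgi RAB, had one inside the gene (chr11:82981791-82982121) at 4.12 in replicate 2 of 4D, 3.27 and 3.98 in 4A, and 10.2 and 5.12 in WT. These were weak peaks in most of the lists. RAB6B and RAB33A were called in replicate 2 alone, RAB6B at up to 15.9 in 4D, 18.0 in 4A and 23 in WT. RAB2B and RAB41 were called in replicate 2 of 4D and WT, and RAB43 in replicate 2 of WT alone.

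Of the 8 RAB genes of regulated secretion, 6 were called in some library, 2 in all 6, and 2 in both replicates of 4D, 4 of 4A and 4 of WT. RAB37, a RAB of secretory granules known from mast cells, had 6 regions within 10 kb, the most of any RAB gene, over a gene of 76.2 kb. The strongest (chr17:74737532-74739087) lay in the gene's interior, 8.25 kb from an end, with −log10 q of 12.9 and 50.5 in 4D, 12.5 and 92.7 in 4A, and 11.7 and 68.8 in WT. Within replicate 1 the RAB37 values of the 3 lines were nearly the same. RAB3A, which docks vesicles for regulated exocytosis, had 2 regions called in all 6 libraries. The stronger (chr19:18192622-18193337) lay 3.45 kb outside the gene at MPV17L2, with −log10 q of 22.9 and 22 in 4D, 5.97 and 26.5 in 4A, and 10.8 and 36.3 in WT. The other covered the RAB3A start (chr19:18203976-18205232), with 5.76 and 15.1 in 4D, 5.29 and 17.1 in 4A, and 8.49 and 14.6 in WT. At the start of RAB3A the lines overlapped.

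RAB3D, a RAB of secretory granules, was not called in replicate 1 of 4D. Its region over the start (chr19:11338261-11339930) reached 62.7 in replicate 2 of 4D, against 3.53 and 50.2 in 4A and 8.18 and 96.1 in WT. RAB44, a large RAB with calcium-binding EF-hands studied in granule-bearing immune cells, was called inside the gene in 4A and WT. Within 10 kb of an end it was called in neither 4D library. RAB27A, needed for granule release and mutated in Griscelli syndrome, was weak within 10 kb of an end. It was called over its start, which it shares with PIGBOS1 (chr15:55319084-55319346), at 1.91 in replicate 2 of 4D and 7.14 in replicate 2 of WT. Neither 4A library called it within 10 kb. Further inside RAB27A, a region (chr15:55222623-55223157) had 15.4 in replicate 2 of 4A and 15.4 in replicate 2 of WT. Another there was called in replicate 2 of 4A alone, at 6.48. RAB3C was called in replicate 2 of 4A and WT, and RAB3B and RAB26 in none.

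The RABs of lysosome-related organelles are RAB29, RAB32 and RAB38, of which RAB32 and RAB38 help to make melanosomes and platelet dense granules. RAB38 was called over an end (chr11:88175432-88175825) in 5 libraries, at 3.92 and 8.42 in 4D, 3.33 and 6.68 in 4A, and 5.83 in replicate 1 of WT. RAB32 was called over its start (chr6:146543290-146544076) in replicate 2 alone, at 8.26 in 4D, 3.67 in 4A and 11.1 in WT. RAB29 was not called. None of these peaks was strong for its list. Far inside RAB38, 151 kb from an end, replicate 2 of 4A alone called a region at 17.8, with a percentile rank of 69.0.

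Of the 9 RAB genes of late endosomes, lysosomes and autophagy, 4 were called in some library, with none in both replicates of 4D, 1 in 4A and 2 in WT. RAB24, which acts in autophagy, had a region called in 5 libraries (chr5:177302939-177304468), over its start and an end of PRELID1, at 14.7 in replicate 2 of 4D, 11.6 and 28.6 in 4A and 20.1 and 31.7 in WT. RAB7B, which moves cargo from endosomes to the Golgi, was called in replicate 2 alone at high values, 45.0 in 4D, 56.0 in 4A and 54.0 in WT (chr1:206011811-206012787). That region lay 8.42 kb outside RAB7B and nearer to CTSE, the gene of cathepsin E. RAB7A, the main RAB of late endosomes, was called over its start in replicate 2 of 4A at 7.86 and of WT at 16.2, and in neither 4D library.

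Of the 5 remaining RAB genes, 3 were called in some library, and 2 of them in all 6 libraries. RAB40B and RAB40C carry a SOCS box, through which they join cullin ubiquitin ligases. The RAB40B region covers the promoter printed above with both motif matches (chr17:82698694-82699128), and its summit lay at -0.132 kb. The −log10 q of RAB40B was 21.0 and 20.6 in 4D, 22.1 and 17.3 in 4A, and 23.6 and 27.2 in WT. Its percentile ranks were 88.2 and 73.5 in 4D, 84.8 and 68.3 in 4A, and 81.2 and 79.9 in WT, higher in replicate 1 of each line. The RAB40C region (chr16:589189-590279) covered its start, at 4.68 and 12.1 in 4D, 6.72 and 39.2 in 4A, and 12.9 and 29.5 in WT. RAB23, a regulator of hedgehog signalling, was called over its start in replicate 2 alone, at 3.47 in 4D, 1.39 in 4A and 7.08 in WT.

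No peak lay within 10 kb of either end of 17 RAB genes (27.4%, against 38.1% of all genes). They were RAB18, RAB19, RAB33B, RAB6C and RAB6D of the ER and Golgi, RAB21 and RAB31 of early endosomes, RAB9A, RAB9B, RAB12, RAB39B and RAB42 of late endosomes and autophagy, RAB3B and RAB26 of secretion, RAB29, and RAB28 and RAB40A. Their median length was 26.2 kb, against 22 kb for the 14 genes called in all 6 libraries. Another 9 of the 62 genes were called in all 3 replicate 2 lists and in no replicate 1 list, beside 15.3% of all genes, namely RAB11A, RAB14, RAB20, RAB23, RAB32, RAB33A, RAB4A, RAB6B and RAB7B. Only replicate 2 of WT called RAB13, RAB17, RAB22A and RAB43, which is 4 of 62 beside 2.85% of all genes.

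Between 4D and WT, 3 RAB genes were called in both replicates of 4D and not in both of WT (RAB1A, RAB38 and RAB5C, beside 2.16% of all genes), and 8 in WT and not in 4D (RAB5A, RAB10, RAB24, RAB30, RAB36, RAB39A, RAB3D and RAB44, beside 8.18%). Of these 8 genes, 6 were called in replicate 2 of 4D and 0 in replicate 1, so the count turns mainly on the shortest list. Between 4A and WT, 2 genes were called in 4A and not WT (RAB2A and RAB38, beside 3.24%) and 3 in WT and not 4A (RAB10, RAB36 and RAB39A, beside 7.04%). Between 4D and 4A, 2 were called in 4D and not 4A (RAB1A and RAB5C, beside 3.93%) and 6 in 4A and not 4D (RAB2A, RAB5A, RAB24, RAB30, RAB3D and RAB44, beside 6.16%). In each comparison the RAB share was within a few percentage points of that of all genes.

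A stricter count took regions called in both libraries of one line and in neither of the other. None was found near a RAB gene in 4D and not WT (0.0799% of all genes), in 4A and not WT (0.255%) or in 4D and not 4A (0.24%). In WT and not 4D there were regions at 2 RAB genes, RAB39A and RAB44 (0.744% of all genes). In WT and not 4A there was 1, at RAB36 (0.329%), and in 4A and not 4D there was 1, at RAB44 (0.679%). The genes named turned on the settings. With all lists at one length, RAB24 took the place of RAB39A and RAB44 in WT and not 4D and that of RAB44 in 4A and not 4D, and RAB36 was lost. With −log10 q of at least 5, the genes in WT and not 4D were RAB30, RAB34 and RAB44. With replicate 1 or replicate 2 left out these counts became 18 and 12 regions for WT and not 4D, out of 3797 and 1503 near all genes, 23 and 5 for WT and not 4A, out of 2991 and 1340, and 10 and 9 for 4A and not 4D, out of 3645 and 1217. The reverse comparisons, counted at 0 above, then held 3 and 3 regions for 4D and not WT, out of 1361 and 481, 7 and 2 for 4A and not WT, out of 2341 and 764, and 11 and 3 for 4D and not 4A, out of 1858 and 772.

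The RAB44 region (chr6:36727595-36728013) lay in the interior of the gene, 5.17 kb from an end. It was in neither 4D list, and had −log10 q of 24.1 and 3.41 in 4A and of 7.75 and 11.3 in WT, with folds of 13.5 and 3.27 in 4A and 7.31 and 6.36 in WT. The 4A replicates stood further apart than 4A and WT did. RAB39A, linked to late endosomes and autophagy, had a region over its start (chr11:107928280-107928496) in neither 4D list, at 6.72 in replicate 1 of 4A, and at 10.4 and 2.09 in WT. RAB36, a Golgi RAB that also acts on late endosomes, had a region 7.22 kb outside the gene (chr22:23176502-23177811), at 17.6 in replicate 2 of 4D, in neither 4A list, and at 12.4 and 9.45 in WT. BCR lay nearer to that region, at 2.70 kb, and with only the nearest gene counted that region was no longer counted. Just outside the 10 kb limit, RAB36 and RAB44 each had another region, called in replicate 2 of every line and in no replicate 1 list. That of RAB36, at 10.9 kb, had 17.1 in 4D, 30.0 in 4A and 24.8 in WT. That of RAB44, at 10.2 kb, had 4.56 in 4D, 13.3 in 4A and 19.7 in WT.

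The folds of the 14 genes called in all 6 libraries gave a few cases where lines did not overlap. Both 4D folds lay below both WT folds at 4 of the 14 strongest regions, against 26.2% of all 3295 regions called in every library, and above them at 0 (0.698%). The 4 genes were RAB6A, RAB8B, RAB35 and RAB40C. Both 4A folds lay below both WT folds at 4, RAB4B, RAB6A, RAB25 and RAB35 (25.1%), and above them at 0 (0.941%). Both 4D folds lay below both 4A folds at 4, again RAB6A, RAB8B, RAB35 and RAB40C (9.2%), and above them at 0 (8.44%). Compared within replicate numbers, a setting added after seeing the data, 4D folds were lower than WT folds in both numbers at 5 of the 14 regions (63.5% of all regions called in every library) and higher at 1, RAB11B (4.37%). The 4A folds were lower than WT folds in both numbers at 10 (58.8%) and higher at 1, RAB34 (4.49%). The 4D folds were lower than 4A folds in both numbers at 4 (26.3%) and higher at 2, RAB5B and RAB11B (24.4%). Some of these cases were near ties in replicate 1. RAB11B had 8.79 in 4D and 8.78 in WT, and RAB5B 8.76 in 4D and 8.73 in 4A. Others used a fold from a summit that lay apart, namely 3.41 for RAB34 in replicate 1 of WT and 5.08 for RAB11B in replicate 1 of 4A. The comparisons with WT share the WT libraries, and the 2 comparisons of 4D share the 4D libraries.

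RAB35 had folds of 6.45 and 6.22 in 4D, 8.01 and 8.55 in 4A, and 11.7 and 10.2 in WT. These 3 pairs did not overlap, and the replicates of each line lay close together. RAB6A had folds of 9.43 and 5.99 in 4D, 9.51 and 10.8 in 4A, and 11.9 and 12.9 in WT, with 4D and 4A nearly touching. RAB40C had 5.94 and 6.05 in 4D, 7.27 and 13.0 in 4A, and 9.88 and 13.1 in WT, and here 4A and WT overlapped. RAB8B had 9.97 and 10.9 in 4D, 12 and 14 in 4A, and 12.2 and 16.9 in WT. These single regions were not tested, and folds from libraries of unknown depth were not rescaled between lists.

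**Figure D3:**
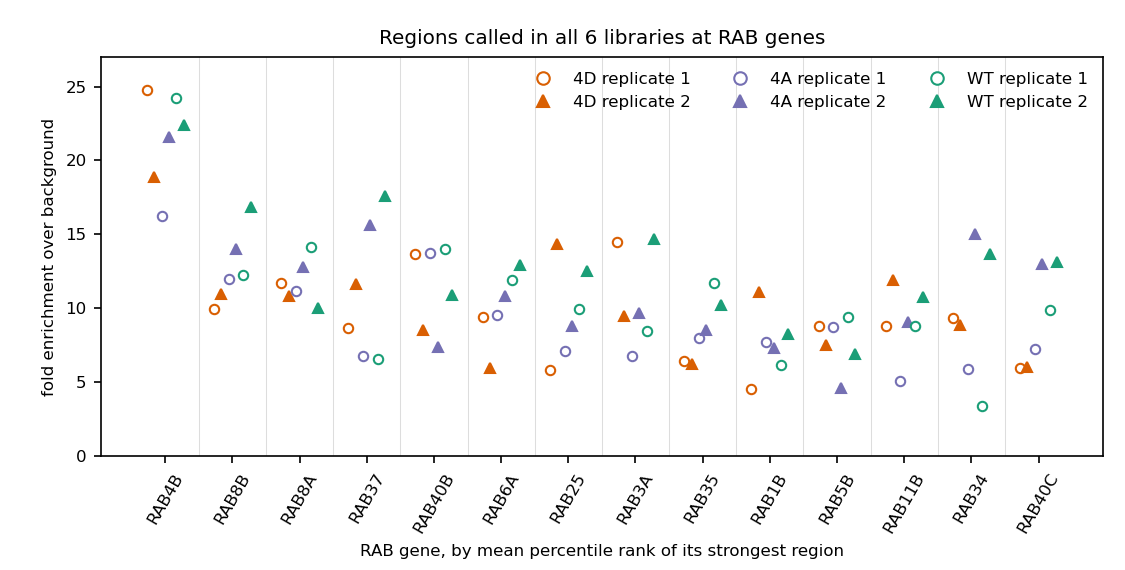
Fold enrichment over background, as deposited, of the strongest region called in all 6 libraries for 14 RAB genes, with 1 point for each library of 4D, 4A and WT. RAB4B lies highest, at 16.3 to 24.8, and at RAB35 the 4D points lie at 6.45 and 6.22, the 4A points at 8.01 and 8.55 and the WT points at 11.7 and 10.2.

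The regions called in every library lay within 1 kb of a start site about as often as such regions over all genes, and several lay nearer to another gene. In all, 95 regions lay within 10 kb of an end of a RAB gene, and for 75 of them the start site of the gene is given by the promoter table. Of the 75, 31 lay within 1 kb of the start (41.3%) and 23 covered it. Of the 16 regions called in all 6 libraries, 15 had a known start site and 8 of these lay within 1 kb of it (53.3%, against 50.2% of 2710 such pairs of region and gene over all genes). Among regions called in 1 library, 4 of 13 lay within 1 kb (30.8%). A gene other than a RAB gene had the nearer end for 34 of the 95 regions, and for 5 of the 16 called in every library. With ties included these counts were 41 and 7. Apart from the 50.2% above, these shares were not counted over all genes. Regions called in all 6 libraries had a median width of 1055.5 bp and a median percentile rank of 71.0, against 204.5 bp and 12.6 for those called in 1 library. Width is that of the merged peaks, so it grows with the number of lists merged.

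**Figure D4:**
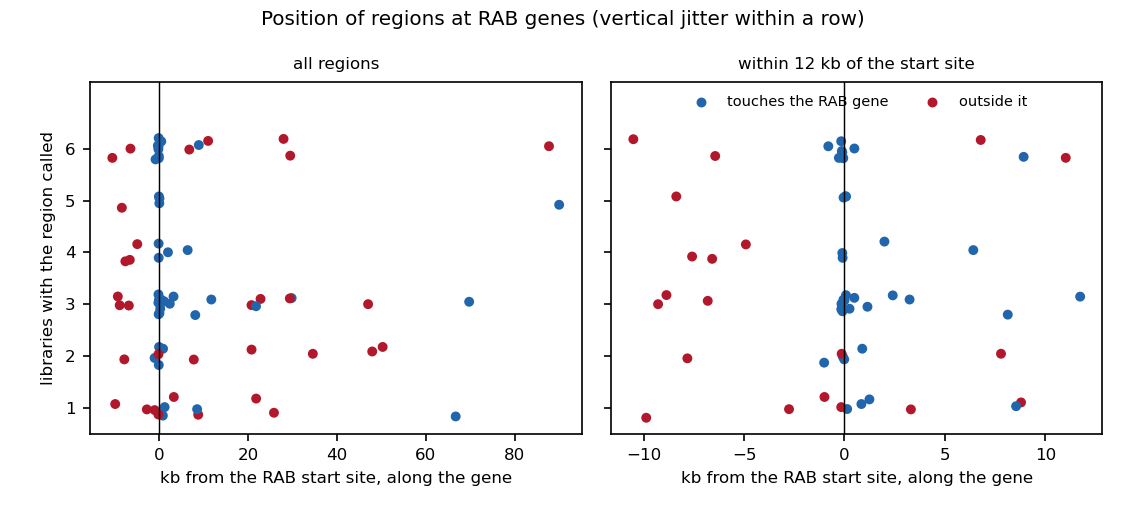
Distance along the gene from the RAB start site to the summit, in kb, against the number of libraries (1 to 6) in which the region was called, for the 75 regions near RAB genes with a known start site, with a closer view within 12 kb on the right. Each point is 1 region, jittered vertically, blue where it touches the RAB gene and red where it lies outside, and 31 of the 75 lie within 1 kb of the start.

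Over the 49 promoters, the number under a peak was 7 and 21 in 4D (14.3% and 42.9%), 12 and 19 in 4A (24.5% and 38.8%) and 14 and 25 in WT (28.6% and 51%). The shares of all promoters were 9.78% and 28.7% in 4D, 10.3% and 33.3% in 4A, and 13.6% and 33.5% in WT. The 7 promoters under a peak in every library were those of RAB11B, RAB3A, RAB40B, RAB4B, RAB5B, RAB6A and RAB8A. TGTGGT was found in 5 of the 49 RAB promoters (10.2%, against 10.8% of all promoters), TGCGGT in 5 (10.2%, against 8.61%) and either in 9 (18.4%, against 18.6%). The 9 were those of RAB10, RAB11B, RAB14, RAB17, RAB24, RAB25, RAB27A, RAB40B and RAB6C. Of the 7 promoters under a peak in every library, 2 held a match, RAB40B and RAB11B, whose match lies in the 50 bases after the start site (28.6%, against 32.1% of all such promoters). Of the 24 RAB promoters under no peak, 3 held one (12.5%, against 16.0%). The median GC content was 65.0% over the RAB promoters and 62.7% over all, and 69.3% over the 7 against 60.7% over the 24. No match says only that these letters are not in the window, and the search did not read the sequence under peaks outside promoters.

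Some RAB genes were called far inside the gene, beyond the 10 kb from either end. There were 34 such regions in 13 RAB genes, of which 9 were called in 4 or more libraries. Such regions were not counted over all genes, and gene length was not taken into account. With the whole gene body counted, 15 RAB genes were called in all 6 libraries (24.2%, against 17.0% of all genes). RAB31, an endosomal RAB with no peak near either end, had 6 of them over its 154 kb, and 1 was called in all 6 libraries (chr18:9743469-9744104), with −log10 q of 6.96 and 32.7 in 4D, 7.58 and 97.6 in 4A, and 5.02 and 72 in WT. RAB8B had 8 such regions, and the strongest of those called in 5 libraries (chr15:63238183-63239154) had 20.1 and 30.6 in 4D, 27.5 in replicate 2 of 4A, and 14.2 and 28.5 in WT. RAB33B was called in its interior alone, at 9.92 in replicate 2 of 4D, 15.1 in replicate 2 of 4A, and 6.77 and 3.68 in WT (chr4:139453446-139454352). These regions were looked at after their values were seen.

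The limit of 10 kb left some strong regions out. Just inside it lay a RAB37 region at 9.96 kb, called in replicate 2 alone at 1.94 in 4D, 16.2 in 4A and 8.29 in WT, and a RAB1B region at 9.85 kb, called in replicate 2 of 4A alone at 2.03. Just outside lay a RAB40C region at 10.0 kb, called in replicate 2 of WT alone at 5.03, and a RAB1B region at 10.1 kb, called in 5 libraries at 2.62 and 10.6 in 4D, 20.6 in replicate 2 of 4A, and 1.91 and 16.2 in WT. At 10.6 kb from RAB7A lay a region called in all 6 libraries (chr3:128714940-128715558), with −log10 q of 43.3 and 72.6 in 4D, 57.4 and 82.9 in 4A, and 59.0 and 72.9 in WT. It was stronger in replicate 1 of each line than any counted RAB region other than that of RAB4B, and in replicate 1 of 4A it also exceeded RAB4B. RAB31 likewise had a region called in all 6 libraries at 11.7 kb (chr18:9695820-9696578), with 5.64 and 55.6 in 4D, 15.3 and 41.3 in 4A, and 5.02 and 36.1 in WT.

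Among the genes that act on RAB proteins, those that switch them on or off had higher shares called in all 6 libraries than effectors or prenylation genes, with no test of the difference. The shares of all genes were 14.5% in all 6 libraries, and 19.5% in 4D, 21.8% in 4A and 25.6% in WT, so the shares of effectors and of prenylation genes in all 6 libraries were near those of all genes. Of 41 RAB exchange factors, 14 were called in both replicates of 4D, 17 of 4A and 16 of WT, and 11 in all 6 libraries (26.8%). Among them RIC1, which activates RAB6 with its partner RGP1, had folds of 10.3 to 25.6 and a mean percentile rank of 99.8, above that of RAB4B. DENND3, an activator of RAB12, had folds of 8.32 to 14.9, and ANKRD27, an activator of RAB21 that also binds RAB32 and RAB38, 10.4 to 22.6. These activators were called in every library, while RAB12 and RAB21 themselves were called in none.

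Of 38 GTPase-activating proteins, 11 were called in 4D, 13 in 4A and 19 in WT, and 11 in all 6 libraries (28.9%). TBC1D14, an autophagy regulator, had folds of 16.0 to 31.2, TBC1D20, which acts on RAB1, 12.9 to 28.9, and TBC1D10B, which acts on RAB35 and RAB27A, 9.72 to 21.9. The TBC1D14 region lay 9.81 kb from the nearer gene end, near the limit, and that of TBC1D20 lay 2.82 kb away. The TBC1D10B region covered an end. Of 47 effectors, 13 were called in 4D, 10 in 4A and 15 in WT, and 8 in all 6 libraries (17.0%). RAB11FIP5, a RAB11 effector, had folds of 19.1 to 27.9, BICD2, which ties RAB6 vesicles to dynein, 12.1 to 44.3, and RBSN, a RAB5 and RAB4 effector, 9.19 to 39.2. Of the 7 genes of prenylation and membrane extraction, 2 were called in 4D, 1 in 4A and 2 in WT, and 1 in all 6 (14.3%), RABGGTB, a subunit of the RAB prenyltransferase, with folds of 7.69 to 12.9.

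Beside the 14 of 62 RAB genes, 6 of 36 Ras genes (16.7%) and 2 of 28 Arf genes (7.14%) were called in all 6 libraries. In both replicates, 9 Ras genes were called in 4D, 11 in 4A and 13 in WT, and 5 Arf genes in 4D, 5 in 4A and 6 in WT. The difference between families was not tested.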

How the data were processed

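The data are 6 CUT&RUN peak lists, 1 for each replicate of the 4D, 4A and WT lines. The submitters' processing notes name MACS2 2.2.7.1, Bowtie2 2.4.2, cutadapt 3.4, deepTools 3.5.1 and Picard 2.25.6, and the build hg38. Read filters, and whether the empty vector libraries were pooled as background, are not given in the sources used here. For each peak the deposited lists hold a score, a fold enrichment (a linear ratio), 2 significance values on the −log10 scale (p-value and q-value) and a summit offset. The weakest peaks had −log10 q of 1.30 to 1.41, and 61 peaks on other sequences were left out.

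Peaks overlapping by at least 1 bp were merged into 33478 regions, with pandas 2.3.3 and numpy 2.4.6 in Python 3.11.15. For a line, the same region had to be called in replicates 1 and 2 within 10 kb of either gene end. Percentile ranks are of −log10 q within a list. Gene ends came from RefSeq (GRCh38.p14), with promoters matched for 49 RAB genes. The counting was checked on simulated data.

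The members, the role lists and the pathway lists were chosen with earlier results of these data known. Named are RAB genes called in all 6 libraries, ranked by mean percentile, those with a region in a whole line and in no library of another, those with most regions, those with none, RAB27A, RAB32 and RAB38, and up to 3 genes of each pathway list. The other RAB genes were named to account for every member. Alternatives covered the distance, the nearest gene, peak strength, summit windows, list length and each replicate left out.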

Additional observations from a re-analysis of the deposited data

How the results depend on the processing

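Of 186 recomputed values, 133 stayed within 1.5 times the reported count and 53 did not. With 2 kb from a gene end in place of 10 kb, the RAB genes called fell to 11 in line 4D (17.7%, against 12.9% of all genes). They fell to 11 in replicate 1 of 4D (17.7%, against 13.2%) and 9 in all 6 libraries (14.5%, against 9.68%). The differences moved to 1 gene in 4D not 4A (beside 2.71% of all genes). For regions they moved to 1 in WT not 4D (of 68 near all genes), 0 in WT not 4A (of 24) and 0 in 4A not 4D (of 37). With the whole gene body counted, the differences were 5 genes in WT not 4A (beside 7.31%) and 2 regions in 4A not 4D (of 162). With the nearest gene end only, they were 1 gene in 4D not 4A (beside 3.12%) and 0 regions in WT not 4A (of 39). With −log10 q of at least 5, they were 0 genes in 4D not WT (beside 1.27%), 0 in 4A not WT (2.46%), 6 in WT not 4A (6.83%) and 1 in 4D not 4A (2.87%). The regions were 2 in WT not 4A (of 53) and 0 in 4A not 4D (of 52). With windows of 100 bp on either side of the summit, 1 region was in 4A not WT. With all lists shortened to 5358 peaks, the genes called were 9 in 4D, 13 in 4A and 13 in WT, beside 12.2%, 13.0% and 13.3% of all genes. The replicate 2 lists called 11 in 4D (17.7%, against 17.5%), 16 in 4A (25.8%, against 18.9%) and 15 in WT (24.2%, against 18.4%), and 7 were called in all 6 libraries. These 7 were RAB1B, RAB25, RAB37, RAB3A, RAB4B, RAB8A and RAB8B (11.3%, against 8.88% of all genes). At that length the differences were 1 gene each in 4A not WT, WT not 4A and 4D not 4A, beside 2.44%, 2.75% and 2.39% of all genes. The regions were 1 in WT not 4D (of 81) and 0 in WT not 4A (of 71). With equal lengths within each replicate number, 1 gene was in 4A not WT (beside 3.65%), and 1 region each was in WT not 4D (of 33) and 4A not WT (of 26). Without replicate 1 or without replicate 2, the genes called ranged from 17 to 36 in 4D and 22 to 36 in 4A. In WT they ranged from 23 to 43. The count over all libraries then covered 3 lists in place of 6. Without replicate 1, 31 RAB genes had a region called in all 3 replicate 2 lists (beside 43.7% of all genes). Without replicate 2, 15 had one in all 3 replicate 1 lists (beside 14.6%). The gene differences then ranged from 1 to 2 in 4D not WT, 1 to 2 in 4A not WT, 2 to 9 in WT not 4A and 2 to 4 in 4D not 4A. In the same order, the shares of all genes ranged from 2.41% to 3.05%, 3.64% to 4.99%, 5.08% to 7.33% and 3.83% to 4.22%. The region differences were 3 and 3 in 4D not WT and ranged from 12 to 18 in WT not 4D, 2 to 7 in 4A not WT, 5 to 23 in WT not 4A, 3 to 11 in 4D not 4A and 9 to 10 in 4A not 4D. Fewer peaks or fewer lists enter by construction in the shortened and the left-out settings; for the others the cause was not tested. No paired analysis was possible because the counts come from peak lists with no test across samples, and folds were set side by side within replicate numbers instead. Depth limits every absence: a region not called in a list may lie under that library's threshold.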
